A study of Mus musculus with 2 samples.

Results

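Cone photoreceptors were taken from 2 droplet-based single-cell RNA libraries as the barcodes in which 5 cone genes (Arr3, Gnat2, Pde6h, Opn1sw and Opn1mw) made up at least 1% of the unique molecular identifiers (UMIs), with at least 3 of the 5 detected. They numbered 252 of 9331 barcodes, counted after those with fewer than 500 genes or with over 30% of UMIs from mitochondrial genes had been removed. The members were thus chosen by the measured UMI counts of these genes, whose own levels are given below as a description only. The tissue was labelled ciliary epithelium, the bilayered epithelium next to the edge of the retina, and came from C57BL/6 mice, wild type, aged 35 postnatal days. Each library was a pool of tissue, from 3 sets of eyes for library 1 and from 3 or 4 sets for library 2, for which the labels differ. There was 1 group with no treatment, so every value below has n = 2 libraries. The main p-values measure how far differences between cell classes varied between the 2 pools, with shifts common to a whole pool taken out. That spread was estimated over all classes in a fit, not for cones alone.

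Cones are the photoreceptors of daylight and colour vision. Light activates a cone opsin, which acts through a cone-specific transducin on a phosphodiesterase that lowers cGMP and closes the cyclic nucleotide-gated channel of the outer segment. Rods use the same chain of reactions, largely built from rod-specific proteins. Mouse cones make a short-wavelength opsin (Opn1sw), a medium-wavelength opsin (Opn1mw) or both, with Opn1sw favoured in the ventral and Opn1mw in the dorsal retina.

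Library 1 held 66 cones among 3865 barcodes, 1.71% (95% exact Clopper-Pearson interval 1.32% to 2.17%). Library 2 held 186 among 5466, 3.40% (2.94% to 3.92%). These intervals, and those below, cover counting error only. Cones had a median of 2949.5 UMIs and 1570.5 genes in library 1, and of 3886.5 UMIs and 1789.5 genes in library 2. Mitochondrial UMIs made up a median of 10.3% and 8.33%, against 7.18% and 6.31% in rods. The rule genes made up a median of 3.40% of a cone's UMIs in library 1 and 2.75% in library 2. In library 1 the 3 cones just inside the threshold had 1.03%, 1.05% and 1.22%, and the 3 barcodes just outside it 0.999%, 0.998% and 0.993%. In library 2 the values were 1.02%, 1.03% and 1.04% inside and 0.999%, 0.963% and 0.963% outside. A further 2 and 3 barcodes met the 1% share with under 3 of the 5 genes detected. The libraries shared 11 barcodes, of which 0 were cones.

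**Figure D1:**
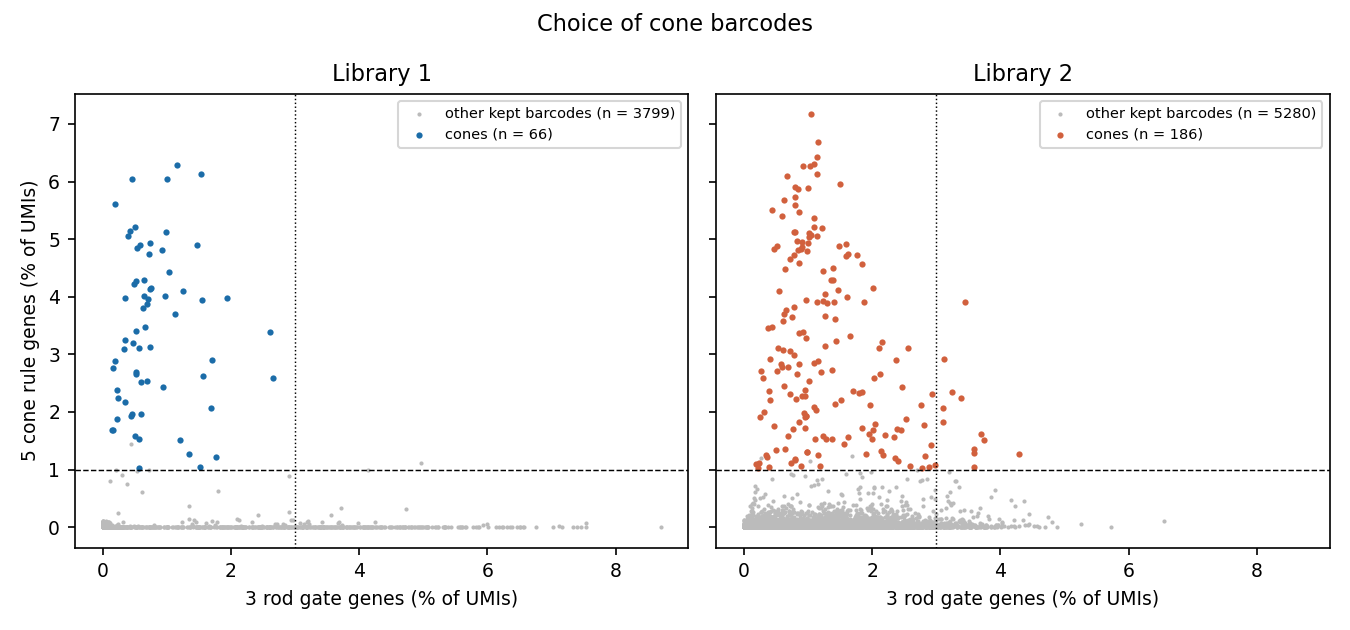
Each point is a kept barcode, placed by the share of its UMIs from the 3 rod gate genes (x, percent) and from the 5 cone rule genes (y, percent), with the 1% cone threshold dashed and the 3% rod gate dotted. The 66 cones of library 1 lie left of the rod gate, and 12 of the 186 in library 2 lie to its right.

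The cone label was checked against Gngt2, the gamma subunit of cone transducin and a cone marker that the rule did not use. At least 1 UMI of Gngt2 was found in 97.0% of the cones of library 1 and 98.9% of those of library 2. Markers of other cell types were also counted in the cones, and the share of each result that comes from them was not tested. All 9 rod markers were detected, with a summed level of 18411 counts per 1000000 UMIs (CPM) in the cones of library 1 and 34180 in those of library 2, against 75080 and 62178 in rods. The 5 fibroblast markers summed to 2206 and 277 CPM in cones, against 40605 and 29844 in fibroblasts, and 2 and 3 cones also met a fibroblast gate. The 9 bipolar markers summed to 1440 and 850 CPM (bipolar cells 20595 and 16089). The 6 Müller glia markers summed to 1420 and 622 CPM (Müller glia 17253 and 13754). Amacrine markers summed to 24.7 and 60.4 CPM, with Tfap2a, Tfap2b and Gad2 at 0 in library 1. Macrophage markers summed to 24.7 and 143 CPM, with Ptprc and Csf1r at 0 in library 1. Endothelial markers summed to 82.3 and 36.8 CPM, with Plvap and Cdh5 at 0 in library 1. Retinal pigment epithelium markers summed to 49.4 and 300 CPM, with Lrat and Rpe65 at 0 in library 1. Markers of pigmented cells summed to 210 and 597 CPM, of horizontal cells to 111 and 103 CPM, of retinal ganglion cells to 74.1 and 27.4 CPM, and of lens to 4.12 and 6.60 CPM. Globin and other red cell genes summed to 1066 and 74.5 CPM. Of the cones, 3 in library 1 and 19 in library 2 also passed the gate of another retinal class, and no doublet caller was run.

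Cones were recovered with retinal neurons and glia although the tissue was labelled as ciliary epithelium. A rod was a barcode with at least 3% of its UMIs from a set of 3 rod genes, all 3 detected, and there were 208 and 220 of them. Cones made up 24.1% of rods and cones together in library 1 (19.1% to 29.6%) and 45.8% in library 2 (40.9% to 50.8%). These shares depended on the rod gate. They were 17.6% and 18.5% with a rod gate of 2%, 14.97% and 9.27% with 1%, and 55.0% and 98.4% with 5%, where 54 and 3 rods were left. No order of the libraries follows from them.

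Opsins divided the cones differently in the libraries. Opn1sw (ENSMUSG00000058831, chromosome 6, 29376671 to 29388468 of GRCm38, minus strand) was detected in 19 of 66 cones of library 1, 28.8% (18.3% to 41.3%), and in 124 of 186 cones of library 2, 66.7% (59.4% to 73.4%). Opn1mw (ENSMUSG00000031394, chromosome X, 74127464 to 74150760, plus strand) was detected in 87.9% (77.5% to 94.6%) and 86.0% (80.2% to 90.7%). Both opsins were found in 11 cones of library 1, 16.7% (8.62% to 27.9%), and in 98 of library 2, 52.7% (45.3% to 60.0%). A cone with neither opsin was seen in 0 of 66 cones and in 0 of 186, where a limit of 3 counts of the total allows a share of up to 4.55% and 1.61% (upper exact limits 5.44% and 1.96%). The rule reads both opsins, so these shares describe the cones chosen.

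Depth and free RNA bear on these shares. After each cone was thinned to 1000 UMIs, which left out 6 and 4 cones, Opn1sw was detected in 25.0% and 60.4%, Opn1mw in 86.7% and 77.5%, and both in 11.7% and 38.5%. In fibroblasts, which do not make opsins, at least 1 UMI of Opn1sw was found in 1.97% and 12.4% of cells and of Opn1mw in 0.856% and 6.67%, at median depths of 5579.5 and 5712.0 UMIs. With at least 3 UMIs required, both opsins were found in 12.1% and 41.4% of cones, and in 0.171% and 0.360% of fibroblasts. The share with both opsins was thus higher in library 2 under each of these counts, with 1 pool on each side and no test. Summed over cones, Opn1sw gave 32.0% of opsin UMIs in library 1 and 65.9% in library 2.

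Cones with at least 10 opsin UMIs, 57 and 168 of them, mostly lay toward an end of the opsin balance. In library 1, 42 cones had an Opn1sw share of at most 0.1, 0 lay between 0.1 and 0.5, 6 between 0.5 and 0.9, and 9 at 0.9 or more. In library 2 the numbers were 60, 8, 50 and 50. Cones with Opn1sw as the larger part therefore often also held Opn1mw, whereas cones with Opn1mw as the larger part seldom had an Opn1sw share above 0.1. Shares between 0.4 and 0.6 were seen in 1 and 5 cones.

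**Figure D2:**
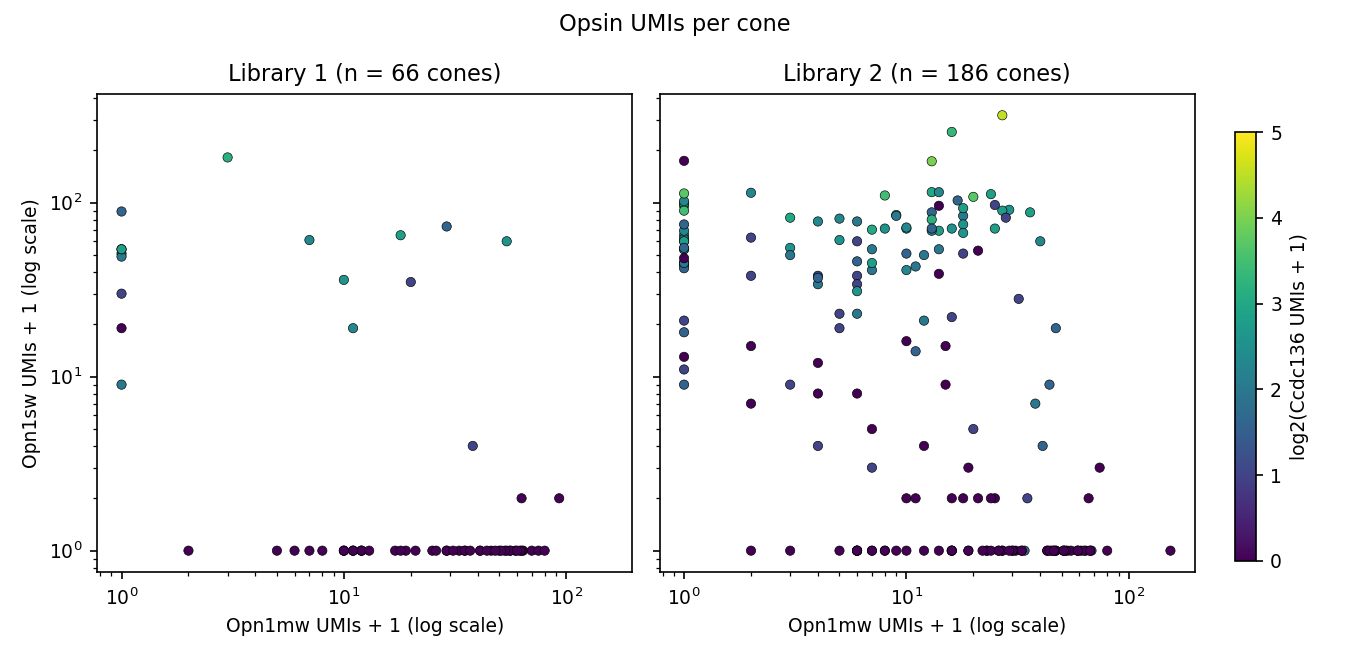
Each point is a cone, placed by its Opn1mw UMIs plus 1 (x, log scale) and Opn1sw UMIs plus 1 (y, log scale), and coloured by Ccdc136 on the log2(UMIs + 1) scale. All cones are plotted, and the counts here cover those with at least 10 opsin UMIs. Of 57 such cones in library 1, 42 have almost only Opn1mw and 15 mainly Opn1sw. Of 168 in library 2, 100 have mainly Opn1sw, of which 50 have an Opn1mw share above 0.1.

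The stretches before the start of 3 rule genes are shown because these genes, 3 of the 5 in the rule, define the cones and hold different numbers of matches to a letter sequence that the photoreceptor factor Crx is known to bind. The sequences are the 250 bases upstream of the RefSeq start in GRCm38.p6, 5′ to 3′ on the gene's strand, with each match to TAATCC or TAATCT on either strand in capitals.
Opn1sw (chr6:29380514-29380763, minus strand): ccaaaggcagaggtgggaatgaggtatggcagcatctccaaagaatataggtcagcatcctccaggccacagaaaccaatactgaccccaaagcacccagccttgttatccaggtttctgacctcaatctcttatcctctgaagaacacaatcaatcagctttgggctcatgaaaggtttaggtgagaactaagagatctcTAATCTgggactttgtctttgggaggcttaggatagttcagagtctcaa
Opn1mw (chrX:74127216-74127465, plus strand): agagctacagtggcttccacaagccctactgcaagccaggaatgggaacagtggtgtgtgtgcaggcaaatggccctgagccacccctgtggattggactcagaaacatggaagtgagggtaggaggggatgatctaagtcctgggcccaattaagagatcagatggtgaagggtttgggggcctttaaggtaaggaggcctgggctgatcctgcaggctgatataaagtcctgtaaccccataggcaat
Arr3 (chrX:100605247-100605496, plus strand): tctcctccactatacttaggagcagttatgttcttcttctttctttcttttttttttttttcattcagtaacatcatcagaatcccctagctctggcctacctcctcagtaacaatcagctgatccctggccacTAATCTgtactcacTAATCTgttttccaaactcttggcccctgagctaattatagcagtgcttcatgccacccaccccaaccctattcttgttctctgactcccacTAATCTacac
Opn1sw had 1 match, at base -49 from the start, Arr3 had 3, between -116 and -10, and Opn1mw had none. Of the rule genes not shown, Gnat2 had 1, at -19, and Pde6h had 0. Among all 32851 windows of this length in the reference table, 12.8% had a match. Of the 282 genes found below to be higher in cones than in rods, 194 had a window and 14.4% of those a match, against 7 of 39 genes lower in cones, 17.9%, and 11.9% of the 5836 tested genes with a window. These matches are letter patterns and were not tested as binding sites.

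Cones were next compared with rods over 7670 genes. Counts were summed per class and library, and the gate genes of both classes were left out of the test. With Benjamini-Hochberg adjusted p under 0.05 and at least a 2-fold difference, 282 genes were higher in cones (3.68% of those tested) and 56 were lower (0.73%), by edgeR's quasi-likelihood test with library as a block. Without the block the counts were 187 and 6. Both classes were gated on their own markers, and how far the gates set the differences of other genes was not tested.

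Of the 21 members of the cone phototransduction list, 15 were tested, and 6 were higher in cones and 1 was lower. Over all tested genes these shares were 3.68% and 0.73%. The median log2 difference was 0.33 against 0.02 over all genes. The 5 rule genes, which were not tested, had these levels: Pde6h, the inhibitory gamma subunit of the cone phosphodiesterase, stood at 14629 and 9738 CPM in cones and 130 and 698 in rods. Arr3, cone arrestin, stood at 3955 and 3240 CPM against 25.2 and 204. Gnat2, the alpha subunit of cone transducin, stood at 2300 and 1669 CPM against 32.5 and 134. Opn1sw stood at 3601 and 6246 CPM against 3.61 and 512, and Opn1mw at 7638 and 3233 against 97.4 and 265. Each of the 5 genes was thus at a higher level in the rods of library 2 than in those of library 1.

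The other transducin subunits differed in the same direction. Gngt2 (ENSMUSG00000038811, chromosome 11, 95837216 to 95845734) stood at 5173 and 3874 CPM in cones and at 43.3 and 262 in rods, a log2 difference of 5.09 ± 0.58 (SE; edgeR adjusted p = 0.000506). Gnb3, the beta subunit, stood at 2988 and 2187 CPM in cones and 220 and 291 in rods, 3.35 ± 0.55 (adjusted p = 0.00378). Neither gene's values overlapped between cones and rods. The share of all tested genes without overlap was not counted, so this carries no further weight.

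The effector enzyme and channel followed. Pde6c, the catalytic subunit of the cone phosphodiesterase (chromosome 19, 38132781 to 38183958), stood at 946 and 311 CPM in cones and at 0 and 39.9 in rods. Its log2 difference was 4.42 ± 0.78 (edgeR adjusted p = 0.00752), and DESeq2 did not call it (adjusted p = 0.293). Cngb3, the beta subunit of the cone channel, was found at 498 and 224 CPM in cones against 14.4 and 20.4, 3.91 ± 0.56 (adjusted p = 0.00132). Its partner Cnga3 was sparse at 86.4 and 42.4 CPM against 0 and 5.09, and 24.2% and 21.5% of cones had a UMI of it. The Cnga3 call was lost with DESeq2 (adjusted p = 0.896) and with a rod gate of 5%. Slc24a2, the cone sodium-calcium-potassium exchanger, stood at 132 and 84.9 CPM against 7.21 and 10.6, 3.33 ± 0.45.

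Of the other tested members of the cone phototransduction list, Gucy2f alone was called. Guca1a, which activates the guanylate cyclases, stood at 3440 and 4002 CPM in cones and 2723 and 2950 in rods (0.33 ± 0.63, adjusted p = 0.861). Rgs9, which speeds transducin shut-off, stood at 350 and 260 CPM against 278 and 267. Its anchor Rgs9bp (-0.55 ± 0.38), the opsin kinase Grk1 (-0.87 ± 0.50), recoverin Rcvrn (-1.37 ± 0.68), phosducin Pdc (-1.51 ± 0.68) and the cyclase Gucy2e (-0.91 ± 0.31) all had negative differences that did not pass the test. The other cyclase, Gucy2f, passed as lower, with 16.5 and 38.7 CPM against 112 and 86.2 (-1.71 ± 0.44, adjusted p = 0.0375). That call was lost with DESeq2 (adjusted p = 0.127), without the block (0.111) and with a rod gate of 1% (0.121).

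**Figure D3:**
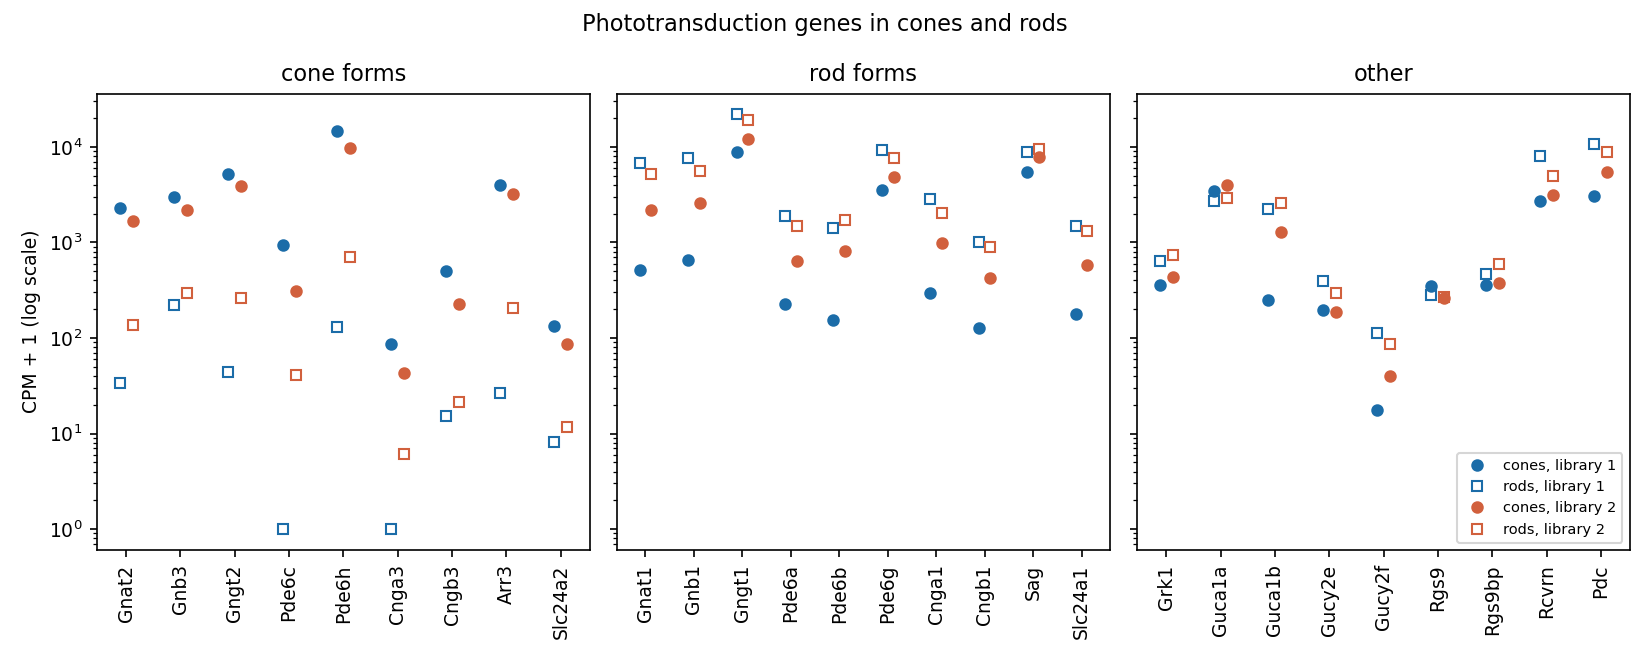
Levels of phototransduction genes in cones (filled circles) and rods (open squares) as CPM + 1 on a log scale, with library 1 in blue and library 2 in orange, for cone forms, rod forms and other members. Cone forms lie higher in cones in both libraries, and rod forms lie higher in rods, with a smaller gap in library 2. Gnat2, Pde6h and Arr3 are genes of the cone rule, and Gnat1 and Sag are genes of the rod gate. The gates set the side on which these genes lie, and they were not tested.

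Rod phototransduction genes were lower in cones but far from absent. Of 12 members, 9 were tested, 7 were lower and 0 higher, with a median log2 difference of -2.34. Over all tested genes 0.73% were lower and 3.68% higher. Pde6a, a catalytic subunit of the rod phosphodiesterase, stood at 226 and 635 CPM in cones and 1901 and 1495 in rods (-2.40 ± 0.57, adjusted p = 0.0305). Cnga1, the rod channel, stood at 296 and 986 CPM against 2817 and 2023 (-2.48 ± 0.66, adjusted p = 0.0497). Gnb1, the beta subunit of rod transducin that other cells also make, stood at 654 and 2574 CPM against 7580 and 5610 (-2.45 ± 0.52). Pde6b, Cngb1, Slc24a1 and Guca1b were the other members called lower, at -2.04 to -2.41. None of these 7 calls held without the block or with a rod gate of 1%.

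Set against rods of the same library, rod genes in cones did not share a common fraction. Gnat1, the alpha subunit of rod transducin, stood at 7.58% of its rod level in the cones of library 1 and 41.5% in those of library 2. Nrl, the factor that directs the rod fate, stood at 12.1% and 44.5%, and its target Nr2e3 at 10.5% and 44.6%. Sag, rod arrestin, stood much higher at 62.6% and 82.7%, Gngt1 at 40.2% and 63.6%, and Pde6g at 37.8% and 62.1%. Sag was found in every cone of both libraries, whereas Gnat1 was found in 42.4% and 86.0%. Gnat1 and Sag belong to the rod gate, so their values are a description only.

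Rod genes were also counted in other cell types of these libraries. Gnat1 stood at 0.398% of the rod level in fibroblasts of library 1 and 6.01% in those of library 2, at 0.975% and 10.2% in bipolar cells, and at 3.79% and 9.58% in Müller glia. Sag stood at 0.491% and 5.62% in fibroblasts and at 1.48% and 11.1% in bipolar cells. The fraction of Sag over that of Gnat1 was 8.26 and 1.99 in cones, 1.52 and 1.09 in bipolar cells, 0.98 and 1.18 in Müller glia and 1.23 and 0.94 in fibroblasts. Gngt1 stood higher in bipolar cells, at 5.06% and 16.0%, as did Cngb1, at 8.74% and 20.9%. The rod fractions were higher in library 2 in all 4 classes. The part of free RNA, of barcodes holding more than 1 cell and of a class's own expression in these values was not tested.

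**Figure D4:**
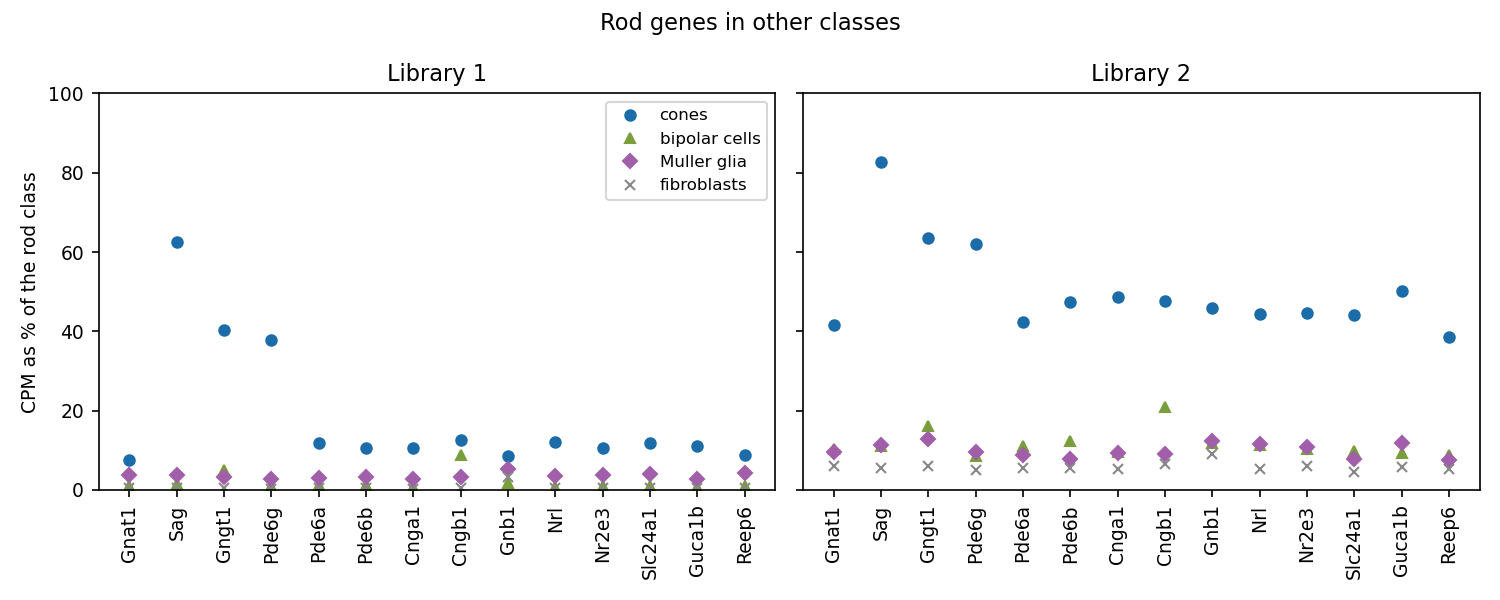
The level of each rod gene in cones, bipolar cells, Müller glia and fibroblasts as a percentage of its CPM in rods of the same library (y, percent). In library 1 most genes in cones lie near 10% with Sag, Gngt1 and Pde6g between 37.8% and 62.6%; in library 2 all cone values lie above 38%.

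The genes with the greatest difference from rods included several outside phototransduction. After Gngt2 came Pgc, the precursor of the protease gastricsin, with 251 and 126 CPM in cones against 0 and 6.79 in rods (4.81 ± 0.56, edgeR adjusted p = 0.000522). Acbd6, an acyl-CoA binding protein, stood at 498 and 301 CPM against 7.21 and 22.5 (4.33 ± 0.38). Gem, a small GTPase, stood at 82.3 and 94.3 CPM against 0 and 6.37 (4.18 ± 0.55). These genes were chosen for large differences of equal sign in both libraries, so their lack of overlap between cones and rods carries no further weight. Gem was also at 180 and 229 CPM in bipolar cells and 94.9 and 513 in fibroblasts. Tshz2, Riiad1, Jam3 and Clca3 followed at 3.80 to 3.96.

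Markers of other cell types, bipolar cells among them, were also called higher in cones than in rods. Pcp2 stood at 523 and 229 CPM in cones against 18.0 and 63.7 in rods (3.04 ± 0.67, edgeR adjusted p = 0.0216), and at 7308 and 5597 in bipolar cells. Gng13 stood at 486 and 283 CPM against 10.8 and 65.4 (3.19 ± 0.66, adjusted p = 0.0148), and at 7055 and 5784 in bipolar cells. Without the cones that passed another retinal gate these calls were lost, with adjusted p = 0.551 for Pcp2 and 0.203 for Gng13, as they were without the block (0.0663 and 0.0651). The bipolar marker Cabp5, the Müller glia markers Glul and Dkk3, the fibroblast marker Dcn and the macrophage marker C1qb were called higher too. None of these calls held without the block, where adjusted p was 0.131, 0.135, 0.0529, 0.144 and 0.0584. These markers were named because they were called, and the other members of their lists are not given. Summed bipolar, Müller glia and fibroblast markers were higher in cones than in rods in both libraries. Macrophage markers summed to 24.7 and 143 CPM in cones against 57.7 and 22.5 in rods, so library 1 went the other way. Without the cones in the fibroblast gate the difference of Dcn was -0.23 (adjusted p = 0.862).

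Gsn, which encodes the actin-severing gelsolin, was also among them but rested on few cells. It stood at 313 and 72.6 CPM in cones against 10.8 and 6.37, yet only 4.55% and 6.45% of cones had a UMI of it, and the top cone held 85.5% and 51.9% of the UMIs. Fibroblasts had 1522 and 1450 CPM. Without the cones in the fibroblast gate its difference was 1.01, with adjusted p = 0.482.

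Among transcription factors of photoreceptors, 21 of 27 members were tested, 1 was higher and 4 were lower. The shares over all tested genes were 3.68% higher and 0.73% lower. Six6, a homeobox factor of the eye field, stood at 189 and 121 CPM in cones against 14.4 and 19.1 in rods (2.99 ± 0.32, adjusted p = 0.0005). Amacrine cells had more of Six6, 271 and 255 CPM, as did Müller glia, 311 and 222, and bipolar cells had less, 68.7 and 85.8. The lower ones were Nrl (-2.38 ± 0.60), Nr2e3 (-2.31 ± 0.49), Samd11 (-2.04 ± 0.53) and Mef2c (-1.81 ± 0.36). Their 4 calls were lost with a rod gate of 1% or 5% and without the block, where adjusted p was 0.395, 0.413, 0.519 and 0.256. DESeq2 also did not call Nrl (0.0587) and Samd11 (0.126). Crx, which acts in both photoreceptors, stood at 580 and 548 CPM in cones and 930 and 790 in rods, with no call (-0.65 ± 0.33). Thrb, the thyroid hormone receptor that directs the Opn1mw fate, stood at 173 and 117 CPM against 64.9 and 71.7, which did not pass the test (0.98 ± 0.35, adjusted p = 0.144). Rxrg, its partner in cones, had 32.9 and 25.5 CPM against 0 and 3.82 and was too sparse to be tested here.

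All 21 outer segment and cilium genes in the files were tested against rods, 4 had a difference above 0, and the median was -0.35. Pcdh15, a cadherin of the calyceal processes, was the single call, with 317 and 226 CPM against 50.5 and 89.1 (1.95 ± 0.42, with adjusted p = 0.106 without the block). Calls higher in cones made up 3.68% of all tested genes. Prph2 and Rom1, which shape the disc rims, stood at -1.67 ± 0.51 and -1.64 ± 0.47 without passing the test. Of 7 tested retinoid genes, none was called, among them the carrier Rbp3 at 3070 and 1975 CPM against 2766 and 2290.

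At the synapse, 3 of 25 tested members were higher in cones and 0 lower, against 3.68% and 0.73% of all tested genes. Cplx3, a complexin of ribbon synapses, stood at 658 and 545 CPM against 61.3 and 152 (2.50 ± 0.51, with adjusted p = 0.0803 without the block and 0.0518 with a rod gate of 1%). Bipolar cells had more of it, 1793 and 1610 CPM, as did amacrine cells, 1718 and 2228. Cplx4 stood at 510 and 746 against 1093 and 1125 (-0.92 ± 0.44, not called). Slc1a2, a glutamate transporter, stood at 946 and 577 CPM against 281 and 365 (1.21 ± 0.31). Its call was lost under 7 alternatives, among them DESeq2 (adjusted p = 0.114) and no block (0.113). Nrxn3, a presynaptic adhesion protein, was called with 1.85 ± 0.43, but its 53.5 and 116 CPM in cones stood beside 736 and 767 in bipolar cells, and adjusted p was 0.0579 without the cones in another retinal gate and 0.123 without the block.

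Of 15 ion channel and pump genes tested, 3 were higher and 1 lower, against 3.68% and 0.73% of all tested genes. Kcne2, an accessory subunit of potassium channels, stood at 206 and 254 CPM in cones against 0 and 21.6 in rods (3.91 ± 0.44). Kcnma1, the large-conductance calcium-activated potassium channel (2.04 ± 0.51), and Kcnk1, a leak channel (1.94 ± 0.51), were called at low levels of at most 82.3 CPM. Bipolar cells had 516 and 405 CPM of Kcnma1, whose call was lost without the cones in another retinal gate (adjusted p = 0.0649), with DESeq2 (0.0600) and without the block (0.0761). The Kcnk1 call was lost under 10 alternatives, and its difference was -0.16 with a rod gate of 1%. Kcnj14, an inward rectifier, was lower with 74.1 and 133 CPM against 523 and 363 (-2.19 ± 0.43, with adjusted p = 0.0795 without the block).

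In glucose and energy metabolism, 2 of 31 tested genes were higher and 0 lower, against 3.68% and 0.73% of all tested genes. Pygm, glycogen phosphorylase of the muscle type, stood at 272 and 170 CPM in cones against 10.8 and 29.3 in rods (3.13 ± 0.38), and 65.2% and 54.8% of cones had a UMI of it. Ckb, a creatine kinase, stood at 3041 and 3452 CPM against 1414 and 1497 (1.13 ± 0.26, with adjusted p = 0.0714 without the block). Bipolar cells had more of Ckb, 3538 and 3777 CPM, as did amacrine cells, 4361 and 4882, and Müller glia had less, 2166 and 2770. Glycolytic enzymes such as Aldoa, Gapdh and Pkm had values of -0.63 to -0.72 that did not pass the test.

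A list of genes that retinal atlases associate with cones shares members with those above. Of 13 tested, 11 were higher and 0 lower, against 3.68% and 0.73% of all tested genes, with a median of 3.53. Otop3, a proton channel, stood at 148 and 77.3 CPM against 0 and 9.34. Its call was lost with DESeq2 (adjusted p = 0.818) and with a rod gate of 5%. Gulo, the last enzyme of vitamin C synthesis, stood at 160 and 119 CPM against 0 and 13.6, and Cd59a, a complement inhibitor, at 280 and 284 against 32.5 and 87.0.

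Of 16 genes that respond to tissue dissociation, 3 were higher in cones and 0 lower, against 3.68% and 0.73% of all tested genes. Fos stood at 383 and 555 CPM against 43.3 and 139 (2.53 ± 0.41), Egr1 at 206 and 372 against 46.9 and 105, and Junb at 296 and 334 against 39.7 and 191. Fibroblasts had far more of each, with Fos at 1819 and 3812 CPM, and the 3 calls were lost with a rod gate of 1%, 2% or 5%. Without the block the adjusted p was 0.189 for Fos, 0.265 for Egr1 and 0.519 for Junb.

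The differences from rods were smaller in library 2. Among the 41 called genes described by the naming rule, 40 had the greater difference in library 1, Ckb being the exception. Rods had a median depth of 1068 UMIs in library 1 and 5402 in library 2. With cones of under 1% rod-gene UMIs alone, 641 genes were higher and 287 lower, and 278 of the 282 and all 56 of the main calls were among them. With a rod gate of 5%, which left 3 rods in library 2, only 42 and 5 genes were called.

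Against bipolar cells, the interneurons that receive photoreceptor signals, 7667 genes were tested, 682 were higher in cones (8.9%) and 776 lower (10.1%). There were 177 and 558 bipolar cells. Of the cone phototransduction list, 13 of 15 tested were higher, and Rgs16, a regulator of G protein signalling, was the single member lower. Gnb3 was not called (0.70 ± 0.49), since bipolar cells held 2013 and 1372 CPM of it. Of the outer segment genes, 18 of 21 were higher.

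The genes highest above bipolar cells began with the cone channel. Cnga3 had 66 UMIs in cones and 1 in bipolar cells over both libraries, a ratio of 268 (counting interval 46.5 to 10746). Pde6c stood at 946 and 311 CPM against 0 and 10.6 (6.41 ± 0.84, edgeR adjusted p = 0.000201). Gulo stood at 160 and 119 CPM against 3.05 and 4.74 (5.10 ± 0.51), and Guca1a at 3440 and 4002 against 39.7 and 340 (4.94 ± 0.76). Fabp7, a fatty acid binding protein, stood at 119 and 73.6 CPM against 1.53 and 3.45. Ccl9, a chemokine, Otop3 and Clca3 had differences of 4.78 to 5.07. DESeq2 did not call Cnga3, Ccl9 and Otop3.

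Genes lowest below bipolar cells were at or near 0 in cones. Fam135b had 0 UMIs in cones and 274 in bipolar cells, at least 22.5-fold lower at a floor of 3 counts over both libraries. Tle6, a corepressor, with 0 against 181, was at least 14.9-fold lower, and Cbln2, a synaptic organiser, with 0 against 111, at least 9.11-fold lower. Grm5, a metabotropic glutamate receptor, had 2 UMIs against 534, a ratio of 65.7 (18.1 to 544). Rnf182, Ano3, Ankrd6 and the histamine receptor Hrh3 each had 1 UMI in cones against 218 to 268. Of the photoreceptor factors, Otx2, at 82.3 and 163 CPM against 356 and 321, was lower in cones (-1.40 ± 0.36), as were Tbx2, Lhx4 and Nr2f1.

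Cones of differing opsin balance were then compared with each other. Cones with at least 10 opsin UMIs were split at an Opn1sw share of 0.5, a cut through a range and not between types, which gave 15 and 100 Opn1sw-rich and 42 and 68 Opn1mw-rich cones. Of 7832 genes, 2 were higher in Opn1sw-rich cones (0.0255%) and 0 were lower (0.0%) by edgeR's quasi-likelihood test, with 396 at an unadjusted p under 0.05. DESeq2 also called 2 and 0. Without library as a block the counts were 0 and 0.

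Ccdc136, a coiled-coil gene (ENSMUSG00000029769, chromosome 6, 29396309 to 29426994, plus strand), had 54 UMIs in the Opn1sw-rich and 2 in the Opn1mw-rich cones of library 1, and 402 and 24 in those of library 2. The log2 difference was 3.77 ± 0.45 (edgeR adjusted p = 0.00472, and 0.0728 without the block). By opsin share, its level in library 2 was 48.0 CPM at a share of at most 0.1, 299 between 0.1 and 0.5, 554 between 0.5 and 0.9 and 608 at 0.9 or more. In library 1 it was 12.8 CPM at the low end and 672 and 759 in the upper bins, with 0 cones between 0.1 and 0.5. It was thus low in the same cones that lacked Opn1sw, and 14 of 15 Opn1sw-rich cones of library 1 had a UMI of it. In the annotation Ccdc136 is the next gene to Opn1sw, 7840 bases away on the other strand with 0 genes between. Bipolar cells held 298 and 363 CPM of Ccdc136 with 0 and 134 CPM of Opn1sw.

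Vax2os, a noncoding RNA (ENSMUSG00000085794, chromosome 6, 83692806 to 83712201, minus strand), had 44 UMIs in Opn1sw-rich and 9 in Opn1mw-rich cones of library 1, and 1117 and 85 in library 2. The log2 difference was 2.91 ± 0.36 (edgeR adjusted p = 0.00472, and 0.961 without the block). Its level by opsin share was 182, 929, 1165 and 1949 CPM in library 2. Library 1 had 57.4 CPM at the low end, 935 between 0.5 and 0.9 and 294 at 0.9 or more, and 1 cone held 50.9% of its UMIs there. Rods also held it, at 671 and 1546 CPM, and the median rod-gene share was 0.991% and 1.39% in Opn1sw-rich cones against 0.594% and 0.873% in Opn1mw-rich cones. Its part in the result was not tested. Vax2os overlaps Vax2, a homeobox gene of the ventral retina on the other strand, by 938 bases. Whether counting used the strand is not given in the sources used here, so reads from the overlap could belong to either gene, and Vax2 itself was at 16.5 and 75.5 CPM in cones (3.05 ± 0.63, adjusted p = 0.247).

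**Figure D5:**
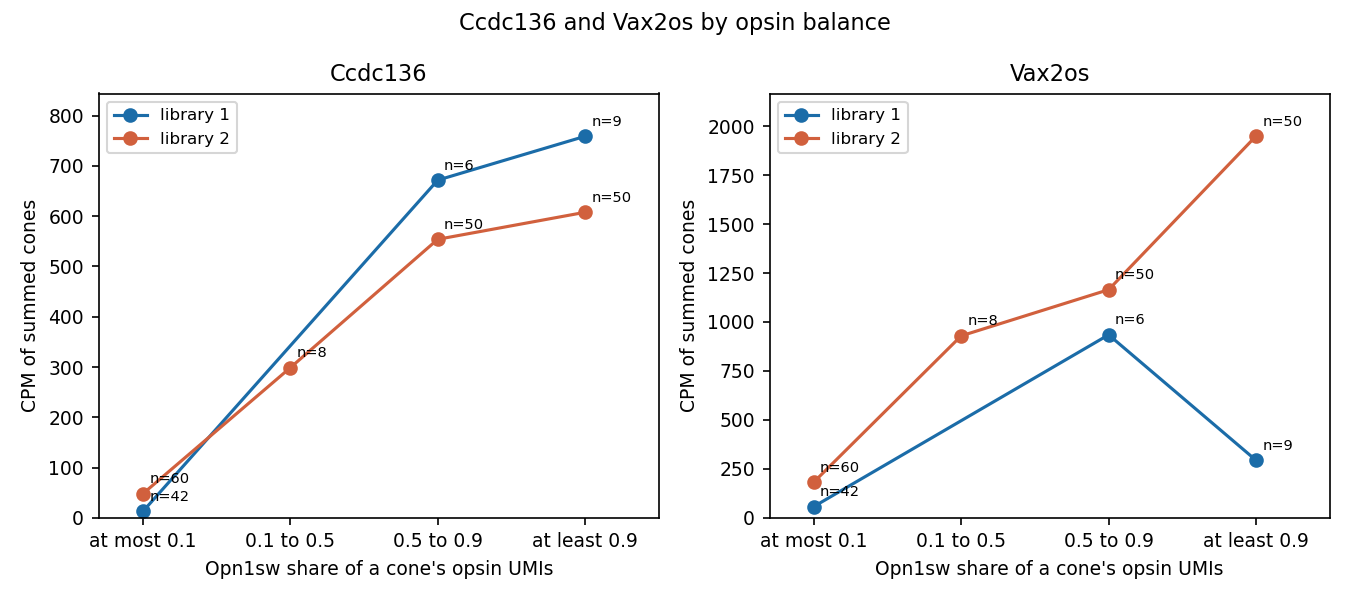
Level of Ccdc136 (left) and Vax2os (right) in cones summed by the Opn1sw share of their opsin UMIs (x, share; y, CPM), with library 1 in blue, library 2 in orange and the number of cones beside each point. Ccdc136 rises from 12.8 and 48.0 CPM to 759 and 608; Vax2os reaches 1949 CPM in library 2 but 294 in library 1, in a bin of 9 cones.

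Other genes linked to the opsin balance gave no call. Thrb stood at -0.55 ± 0.37, with 8 and 25 UMIs in the Opn1sw-rich and Opn1mw-rich cones of library 1 and 69 and 46 in those of library 2. Rxrg (1.27 ± 0.74) had 3 and 3, then 23 and 4 UMIs, and Tbx2 (0.47 ± 0.58) had at most 10 in any of the 4 sums. None of the tested phototransduction genes was called, and the 15 of the cone list had a median of -0.15 against 0.01 over all genes.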

How the data were processed

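The authors deposited raw UMI counts per gene and barcode, in matrices whose header names Cell Ranger 3.1.0. Per the submitters' processing notes the tools were CASAVA 1.8, Cell Ranger and Seurat and the builds mm10 and GRCm38, without their roles. The second count matrix of each library differed in 0 entries. The 33456 genes gave 22510387 UMIs in 4764 barcodes (library 1) and 30683405 in 6220 (library 2). The members, gates and gene lists were chosen with earlier results of these data known.

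Other classes were gated by shares of UMIs: rods 3%, bipolar cells 0.5%, amacrine cells 0.3%, Müller glia 1% and fibroblasts 0.5%. Counts were summed per class and library and tested with edgeR 4.0.16 in R 4.3.3 (TMM, filterByExpr, quasi-likelihood F test, Benjamini-Hochberg adjusted p under 0.05 and absolute log2 fold change of at least 1). The 5 retinal classes entered a fit of 10 sums with 4 residual degrees of freedom, and the opsin split a fit of 12 sums with 5, so cones are assumed to vary between pools like the other classes. Library was the block because same-numbered sums come from the same pool. The fit was tested on simulated data, from which the bias-adjusted dispersion was chosen.

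Named genes were the 12 called genes furthest from rods in each direction and the 8 furthest from bipolar cells, with 20 UMIs or more in the higher class and an equal sign in each library, without predicted, RIKEN, mitochondrial and ribosomal genes. Up to 4 called members of each of 10 lists per direction, the phototransduction lists, the genes called in the opsin split and Thrb, Rxrg and Tbx2 were added. Other list members, and Vax2, were chosen after their values were seen. Positions are from GENCODE M21, which held 32739 of the 33456 identifiers. Alternatives varied the gates and cell filters, the tool (DESeq2 1.42.0), size factors, low-count filter, block, classes in the fit and libraries. Those chosen after seeing the data were a rod gate of 1%, cones with under 1% rod-gene UMIs, cones outside the fibroblast gate and the older dispersion estimate. Values of 1 rod gene are not reported here.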

Additional observations from a re-analysis of the deposited data

How the results depend on the processing

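Counts against rods moved most. Genes higher numbered 187 with no replicate block, 185 with cones and rods only, 42 and 143 with rod gates of 5% and 1%, and 641 with cones of under 1% rod-gene UMIs. Genes lower numbered 6 with no replicate block, 33 and 172 with cone thresholds of 0.5% and 2%, 34 with a mitochondrial limit of 15%, 21 with DESeq2, 118 without a low-count filter, 91 with the older dispersion estimate, 25 with cones and rods only, 5 and 11 with rod gates of 5% and 1%, and 287 with cones of under 1% rod-gene UMIs. Against bipolar cells the genes lower numbered 479 with cones of under 1% rod-gene UMIs. In the opsin split the genes higher numbered 0 with no replicate block, and the genes lower 8 without a low-count filter and 2 with the older dispersion estimate. The cause was not tested. Of the 41 called genes named against rods, 8 kept their call under every alternative fit, and no replicate block ended 24 calls. Against bipolar cells 13 of 16 kept theirs, and the 3 losses were with DESeq2. Of the 338 genes called against rods, 7, 1 and 5 had the opposite sign with rod gates of 1%, 2% and 5% and 2 without the cones in the fibroblast gate, and 0 in the other fits. Of the 1458 called against bipolar cells, 5 did with cones of under 1% rod-gene UMIs, 1 with a cone threshold of 0.5% and 1 without the cones in the fibroblast gate. Cones per 100 rods and cones were 17.6 and 18.5 with a rod gate of 2%, 55.0 and 98.4 with 5% and 14.97 and 9.27 with 1%. For library 2 they were 52.4 and 35.5 with cone thresholds of 0.5% and 2%. In library 2 Opn1mw was found in 80.1% of cones at 3 UMIs and 77.5% after thinning, and both opsins in 41.4% and 38.5%. Calls cannot be tested in a single library. Depth limits genes under about 20 UMIs per class.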
